A study of Arabidopsis thaliana with 4 samples.

Results

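The auxin response of a plant cell runs through a pair of protein families, and their genes are described here in the stem base of Arabidopsis thaliana. The 44 genes were taken by locus: 29 Aux/IAA genes, which encode repressors, and 15 ARF genes, which encode the AUXIN RESPONSE FACTOR transcription factors that those repressors bind. They were read from the 33316 loci listed for each library. Col-0 wild type (WT) was compared with the mutant mol1-1 in the same background, with 2 libraries per genotype, to find transcripts that depend on MOL1. MOL1 (AT5G51350) encodes a receptor-like kinase with leucine-rich repeats, and the stem is known to thicken more without it. Plants of both genotypes spent 3 weeks on soil at 21 °C with 8 h of light a day, and flowering was then induced with 16 h of light. The lowest 1 cm of the inflorescence stem, just over the rosette, was cut from plants 15 to 20 cm tall, and polyadenylated RNA was sequenced. Nothing in the labels says whether the libraries of a genotype came from separate plants or cultures, so every p-value measures the spread between these libraries only, which may be technical. The segment holds many cell types, and fewer cells of a type cannot be told apart from less RNA per cell.

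Auxin acts through its receptors, the F-box proteins TIR1 and AFB. With auxin bound, they recognise a short stretch in domain II of the Aux/IAA proteins, the degron, and mark these repressors for destruction. The ARF proteins, which sit on DNA motifs in the promoters of auxin-regulated genes, are then free to act. Aux/IAA proteins recruit the corepressors of the TOPLESS family through a leucine repeat, and many Aux/IAA genes are themselves switched on by auxin, so the pathway feeds back on itself. Auxin moving down the stem is a known driver of the cambium, the dividing layer that thickens it.

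The libraries held 30794836 and 28017346 exon reads in WT and 37059413 and 28570901 in mol1-1. MOL1 itself was at 9.75 and 9.43 RPKM in WT and at 2.96 and 2.96 RPKM in mol1-1 (reads per kilobase of exon, scaled to 1000000 reads, as the authors deposited them). The log2 fold change of mol1-1 over WT for this gene, -1.66 with an SE of 0.12, passed edgeR's quasi-likelihood test (adjusted p = 0.0217). The cambium markers WOX4 and PXY were at 22.2 to 32.0 and 111 to 119 RPKM, whereas the root marker PYK10 reached no more than 0.286 RPKM and the flower markers AP1 and AG no more than 0.104 and 0.295 RPKM. The mol1-1 replicate 2 library lay at an end of the range in many tissue markers. Over all tested genes it was the highest in 33.3% and the lowest in 34.2%. All 3 epidermis markers were lowest in it, with summed levels of 181 and 182 RPKM in WT and 150 and 96.7 RPKM in mol1-1. Both cambium markers were highest in this library, and neither phloem marker (APL and SUC2) was at an end. The 2 green tissue markers were highest in it, summing to 2131 and 1911 RPKM in WT and to 1964 and 2688 RPKM in mol1-1. Of the 4 xylem markers 3 were lowest in it, with sums of 1965 and 2620 RPKM in WT and 1593 RPKM in this library against 2645 RPKM in the other mol1-1 library. No group rests on more than 2 libraries, and an exact permutation test of 2 against 2 cannot give a two-sided p below 0.333, so calls come from the model fitted across all genes.

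The degron divides the Aux/IAA genes by sequence, a feature not used to choose them. Its core, glycine, tryptophan, proline, proline and 1 more residue, was encoded by 23 of the 29 genes in their first RefSeq transcript. The last residue was valine in 17, isoleucine in 5 (IAA8, IAA11, IAA12, IAA13 and IAA27) and leucine in 1 (IAA10). IAA20, IAA30, IAA31, IAA32, IAA33 and IAA34 had no such core. The coding strand of the core is shown in capitals, with 6 bases on each side, for the 2 most abundant Aux/IAA genes, for the leucine form and for IAA16 and IAA14, close relatives at very different levels in this tissue (RefSeq, TAIR10.1 assembly). The windows are chr4:14324654-14324680 on the minus strand for IAA27, chr5:26255107-26255133 on the plus strand for IAA9, chr1:1060331-1060357 on the plus strand for IAA10, chr3:1289730-1289756 on the minus strand for IAA16 and chr4:8349478-8349504 on the minus strand for IAA14.
IAA27: gtggtgGGATGGCCACCAATAagatca
IAA9: attgtcGGTTGGCCTCCAGTGagatcc
IAA10: gctgtaGGTTGGCCGCCTCTAcggact
IAA16: gttgtgGGATGGCCACCGGTAcgatct
IAA14: gtggtgGGTTGGCCACCGGTGaggaac
The pattern of the leucine repeat that binds TOPLESS (leucines at every other position, LxLxL) was searched at any place in the protein. It was found in 28 of 29 Aux/IAA sequences, all but IAA33, and in 2 of 15 ARF sequences, ARF2 and ARF19. Binding was not tested, and the share over all proteins was not counted. The ARF proteins known as activators have a middle region rich in glutamine. Glutamine made up 15.28% of codons in ARF7, 12.52% in ARF19, 10.4% in ARF6, 8.75% in ARF8 and 6.98% in ARF5, against 2.24 to 5.98% in the other 10 ARF genes.

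Several ARF transcripts carry sites for small RNAs that cut them, and these sites were found by complementarity in the spliced transcripts, allowing up to 4 mismatches. Those with sites were ARF10, ARF16 and ARF17 for miR160, and ARF6 and ARF8 for miR167, each site within the coding span. The mature small RNAs are shown with their seed (bases 2 to 8) in capitals and written as DNA. The sites have capitals where a base is the exact complement, so a G:U pair is in small letters and counts as a mismatch. These sequences set the ARF genes into classes whose levels are compared later (RefSeq, TAIR10.1). The miR167 sites shown are those for the a and b forms. The sites lie at chr2:12115741-12115761 (plus strand) for ARF10, chr4:14704141-14704161 (minus) for ARF16, chr1:29274189-29274209 (plus) for ARF17, chr1:10686478-10686498 (minus) for ARF6 and chr5:14633841-14633861 (plus) for ARF8.
miR160a-5p: tGCCTGGCtccctgtatgcca
ARF10: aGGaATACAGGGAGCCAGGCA
ARF16: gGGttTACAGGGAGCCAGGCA
ARF17: TGGCATgCAGGGAGCCAGGCA
miR167a-5p: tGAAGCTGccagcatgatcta
miR167d: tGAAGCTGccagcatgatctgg
ARF6: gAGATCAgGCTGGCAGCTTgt
ARF8: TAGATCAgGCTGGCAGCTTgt
The miR160 site had 1 mismatch in ARF17, 2 in ARF10 and 3 in ARF16. The miR167a site had 3 mismatches in ARF8 and 4 in ARF6. ARF2, ARF3 and ARF4 are known targets of small interfering RNAs made from the TAS3 transcript, and no sequence of these is shown.

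The motifs that ARF proteins bind, TGTCTC and TGTCGG, were counted on both strands of the 250 bases before each gene's start. TGTCTC was present in 9 of 29 Aux/IAA genes (31.0%), in 1 of 15 ARF genes (6.7%) and in 10.9% of 27443 protein-coding genes. TGTCGG was present in 6 Aux/IAA genes (20.7%), in 2 ARF genes (13.3%) and in 4.2% of all. In a window of 1000 bases the shares lay closer together for TGTCTC, at 58.6% of Aux/IAA, 40.0% of ARF and 39.6% of all genes, and TGTCGG was in 27.6%, 33.3% and 14.6%. The motifs share their first 4 letters and never occupy the same bases on 1 strand. IAA19 had the most copies of TGTCTC. Its window, chr3:5263751-5264000 on the plus strand, is shown with the motif in capitals where it reads in the gene's direction or as its reverse complement.
IAA19: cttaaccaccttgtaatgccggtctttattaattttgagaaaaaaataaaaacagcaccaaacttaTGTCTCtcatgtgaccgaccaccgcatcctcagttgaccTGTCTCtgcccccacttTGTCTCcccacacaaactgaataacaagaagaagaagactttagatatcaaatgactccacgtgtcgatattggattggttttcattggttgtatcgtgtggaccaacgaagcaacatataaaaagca
The window held 3 copies. A match describes these letters only.

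The stem base expressed most of the 44 listed genes, at levels that spanned a wide range. Summed over the 29 Aux/IAA genes, the level was 2341 and 2276 RPKM in WT and 2196 and 2507 RPKM in mol1-1. Summed over the 15 ARF genes it was 684 and 653 RPKM in WT and 667 and 645 RPKM in mol1-1. In both families the groups overlapped. The 5 highest Aux/IAA genes made up 68.6 to 71.6% of their family's sum, and the 5 highest ARF genes 79.8 to 81.9% of theirs. Averaged over the 4 libraries, 8 genes lay above 100 RPKM (6 Aux/IAA and 2 ARF), 29 between 1 and 100 RPKM and 7 below 1 RPKM. All 7 of the lowest were Aux/IAA genes. The 15 ARF genes leave out 8 of a tandem cluster on chromosome 1, none of which averaged above 0.156 RPKM. The contrast between the families thus depends on the list. Between the highest and the lowest of the genes with enough reads to test, the level differed 1356-fold. In the order of levels, 9 of the 43 steps between neighbours separated genes whose ranges over the 4 libraries did not overlap, so most neighbours do not differ beyond their spread.

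**Figure D1:**
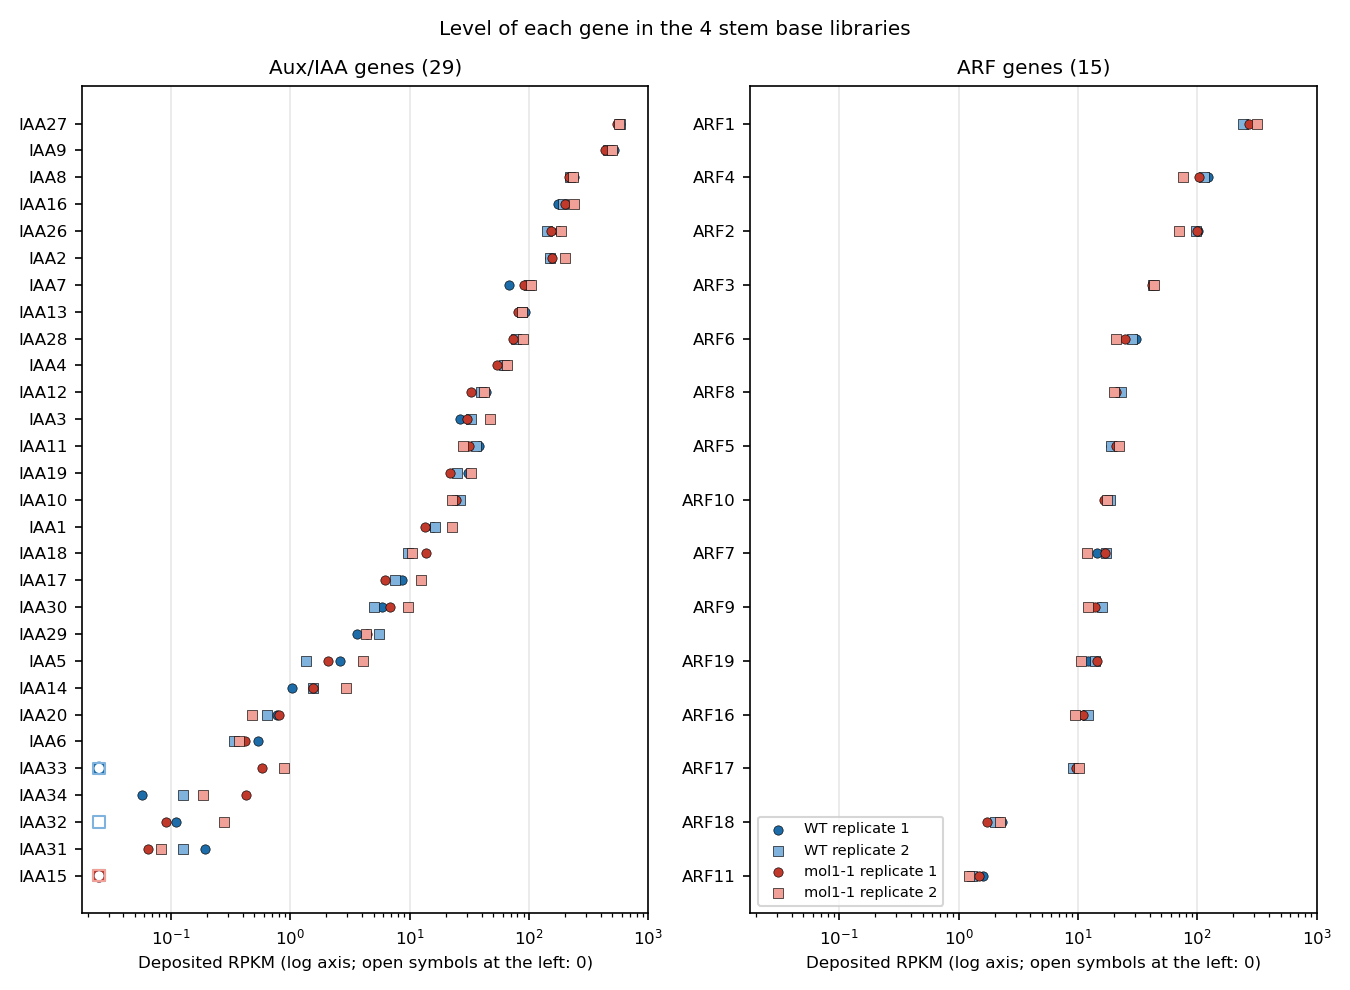
Deposited RPKM (log axis) of the 29 Aux/IAA genes and the 15 ARF genes in each of the 4 libraries, ordered by the mean over them. Each symbol is 1 library, and open symbols at the left edge stand for 0. The 4 symbols of a gene lie close together compared with the distances between the top and the bottom of each family.

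IAA27 and IAA9 stood at the top of the Aux/IAA family. With IAA8 they form a branch of long repressors. IAA27 (AT4G29080) was at 575 and 581 RPKM in WT and at 542 and 564 RPKM in mol1-1, above 99.6% of the 27198 loci that list a transcript. Both mutant values lay under both WT values on this scale, but the fitted log2 fold change was only -0.03 (SE 0.17). IAA9 (AT5G65670) was at 513 and 455 RPKM in WT and at 437 and 497 RPKM in mol1-1, and the groups overlapped. IAA8 (AT2G22670) was at 238 and 221 RPKM in WT and at 218 and 232 RPKM in mol1-1, again with overlap. The estimates for these 3 were the nearest to 0 among the genes above 100 RPKM, with 95% intervals of the log2 fold change from -0.46 to 0.39 for IAA27, from -0.46 to 0.42 for IAA9 and from -0.38 to 0.38 for IAA8.

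IAA16, IAA26 and IAA2 came next in the family. IAA16 (AT3G04730) was at 174 and 193 RPKM in WT and at 199 and 240 RPKM in mol1-1, and IAA2 (AT3G23030) was at 150 and 149 RPKM in WT and at 157 and 201 RPKM in mol1-1. In both genes the mutant libraries lay above the WT libraries, and the log2 fold change was 0.29 (SE 0.17) for IAA16 and 0.29 (SE 0.16) for IAA2, with adjusted p = 0.981 and 0.973 (edgeR). IAA26 (AT3G16500) was at 177 and 140 RPKM in WT and at 154 and 187 RPKM in mol1-1, with overlap. IAA7 (AT3G23050), known as AXR2 from its auxin-resistant mutant, was at 67.6 and 101 RPKM in WT and at 90.8 and 105 RPKM in mol1-1, and its WT libraries differed more from each other than the genotype means did.

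The other well-known Aux/IAA genes filled the middle of the range. IAA13, IAA28 and IAA4 averaged 87.2, 81.4 and 59.9 RPKM over the 4 libraries. IAA12 (AT1G04550), known as BODENLOS, restrains ARF5 in the embryo, and it averaged 39.4 RPKM. IAA3 (AT1G04240), known as SHY2 and active in the root meristem, was at 26.5 and 32.9 RPKM in WT and at 30.2 and 47.1 RPKM in mol1-1. IAA11, IAA19, IAA10 and IAA1 averaged 33.3, 27.4, 24.0 and 17.0 RPKM. IAA19 is known as MSG2 from its part in the bending of the seedling stem. IAA18 (AT1G51950) was at 9.98 and 9.60 RPKM in WT and at 13.6 and 10.5 RPKM in mol1-1, so the groups did not overlap, by a narrow margin. IAA17, known as AXR3, averaged 8.67 RPKM, and IAA29 averaged 4.46 RPKM.

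Genes at a few RPKM or less rested on few reads. IAA5 (AT1G15580) was at 2.59 and 1.34 RPKM in WT and at 2.07 and 4.06 RPKM in mol1-1, and IAA14 (AT4G14550), known as SOLITARY-ROOT for its part in the start of lateral roots, was at 1.03 and 1.54 RPKM in WT and at 1.54 and 2.93 RPKM in mol1-1. IAA14 had 36.3 intron reads per 100 exon reads, against at most 3.53 for any other member and a median of 0.339 over the members. Of 16236 tested genes with more than 1 exon, 0.382% had a higher value. In the 4 libraries IAA14 had 48, 65, 86 and 126 exon reads and 18, 18, 31 and 51 intron reads, and 14 reads crossed a junction. IAA20 averaged 0.677 RPKM and IAA6 averaged 0.417 RPKM.

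The genes without the degron core were all low. Their summed level was 6.95 and 5.93 RPKM in WT and 8.84 and 11.6 RPKM in mol1-1, and most of it came from IAA30. The genes with the core summed to 2334 and 2270 RPKM in WT and to 2187 and 2495 RPKM in mol1-1. IAA30 (AT3G62100) was at 5.81 and 5.04 RPKM in WT and at 6.86 and 9.71 RPKM in mol1-1, with both mutant libraries above both WT libraries. Its log2 fold change was 0.64 (SE 0.23) with a 95% interval from 0.07 to 1.20. By edgeR its unadjusted p was 0.0338 and its adjusted p over all genes was 0.741, so it did not pass. Without mol1-1 replicate 2 its log2 fold change was 0.40 with adjusted p = 0.927, and without mol1-1 replicate 1 it was 0.83 with adjusted p = 0.122.

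The 5 untested Aux/IAA genes, 4 of them without the core, had too few reads. IAA31 had 5 and 3 reads in WT and 2 and 2 in mol1-1. IAA32 had 3 and 0 reads in WT and 3 and 7 in mol1-1, and IAA34 had 1 and 2 in WT and 9 and 3 in mol1-1. IAA15 (AT1G80390), which has the core, had 0 reads in every library, which allows up to 0.0974, 0.107, 0.0810 and 0.105 reads in a library scaled to 1000000 reads (3 reads of each total, counting error only). IAA33 (AT5G57420), the Aux/IAA gene with neither degron core nor leucine repeat, had 0 and 0 reads in WT and 12 and 14 in mol1-1. Set against a floor of 3 reads over the WT group, its mutant reads were 7.77-fold higher. That ratio takes the 26 mutant reads as exact and leaves out the spread between libraries, so it is no lower limit. When IAA33 was let into the fit by testing all loci with reads, its adjusted p was 0.267 (edgeR). The difference thus rests on 26 reads and did not pass.

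The ARF family was led by ARF1 (AT1G59750), a repressor, at 262 and 240 RPKM in WT and at 270 and 317 RPKM in mol1-1. The deposited model of this gene covers 982 exon bases against 2599 in the RefSeq annotation, and its level is per base of the shorter model. Next came ARF4 and ARF2. ARF4 (AT5G60450), which acts with ARF3 in giving organs an upper and a lower side, was at 124 and 114 RPKM in WT and at 103 and 75.9 RPKM in mol1-1. Both mutant libraries lay below both WT libraries, and the log2 fold change was -0.37 (SE 0.21) with a 95% interval from -0.88 to 0.15. ARF2 (AT5G62000), a repressor that limits growth, was at 101 and 96.7 RPKM in WT and at 98.8 and 70.7 RPKM in mol1-1, and only the mol1-1 replicate 2 library was low.

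ARF3 (AT2G33860), known as ETTIN, varied little, at 42.2 and 42.2 RPKM in WT and at 42.1 and 43.5 RPKM in mol1-1. Of the 5 activators, ARF6 (AT1G30330) was at 30.9 and 28.1 RPKM in WT and at 25.0 and 20.7 RPKM in mol1-1, with no overlap (log2 fold change -0.34, SE 0.16, adjusted p = 0.926 by edgeR). ARF8 (AT5G37020), its close relative in flower and stem growth, was at 21.5 and 23.2 RPKM in WT and at 20.9 and 20.0 RPKM in mol1-1. ARF5 (AT1G19850), known as MONOPTEROS and needed to form vascular tissue, was at 19.0 and 18.8 RPKM in WT and at 21.0 and 22.0 RPKM in mol1-1, again without overlap, and the estimate was a log2 fold change of 0.22 with an SE of 0.12 (edgeR, adjusted p = 0.965). ARF7 and ARF19, which act together in lateral root formation, averaged 15.1 and 12.8 RPKM. The targets of miR160, ARF10, ARF16 and ARF17, averaged 17.6, 10.9 and 9.54 RPKM, and ARF9, ARF18 and ARF11 averaged 14.3, 2.08 and 1.40 RPKM.

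Genotype made no difference that passed the test in either family. Of the 44 genes 39 had enough reads to be tested, 24 Aux/IAA and 15 ARF, and 0 passed an adjusted p of 0.05 over all 19024 tested genes (edgeR's quasi-likelihood test). Across all tested genes 38 passed (0.2%), 36 of them higher (0.189%) and 2 lower (0.0105%) in mol1-1. This split is not firm, with 258 higher and 32 lower by DESeq2 and 285 higher and 124 lower without mol1-1 replicate 1. At an unadjusted p under 0.05, 1 member was counted, IAA30, against 5.94% of all genes. DESeq2 and limma-voom also called 0 members. The median log2 fold change was 0.03 for Aux/IAA and -0.09 for ARF genes, beside -0.01 for all tested genes. Of the Aux/IAA genes 13 of 24 had an estimate above 0, and of the ARF genes 4 of 15, against 47.8% of all genes.

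Both mutant libraries lay above both WT libraries, as scaled counts (CPM), in 9 members (23.1%), namely IAA2, IAA14, IAA16, IAA18, IAA30, ARF1, ARF3, ARF5 and ARF17, against 16.9% of all tested genes. They lay below in 5 members (12.8%), namely IAA11, IAA13, ARF4, ARF6 and ARF9, against 16.8% of all. In deposited RPKM the groups of ARF3 overlapped, and IAA27 and ARF8 also lay below both WT libraries. IAA14 was barely apart in RPKM, at 1.541 in mol1-1 replicate 1 against 1.539 in WT replicate 2. Neither CPM share was tested against the background. The precision of the estimates is given by their intervals. In 34 of the 39 members the 95% interval lay within a 2-fold change in either direction, against 79.8% of all tested genes, and this held for 15 of 15 ARF genes and 19 of 24 Aux/IAA genes. The other 5 were the low genes IAA5, IAA6, IAA14, IAA20 and IAA30. A 1.5-fold limit held for 18 of the 39, against 50.0% of all tested genes. A p that missed the threshold does not show equal levels. In simulated data of this design 52.8% of 2-fold and 92.4% of 4-fold changes were recovered. The simulated libraries had no shift by exon length, and more genes were changed in them than the real fit called. These shares may therefore be too high for the real libraries.

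**Figure D2:**
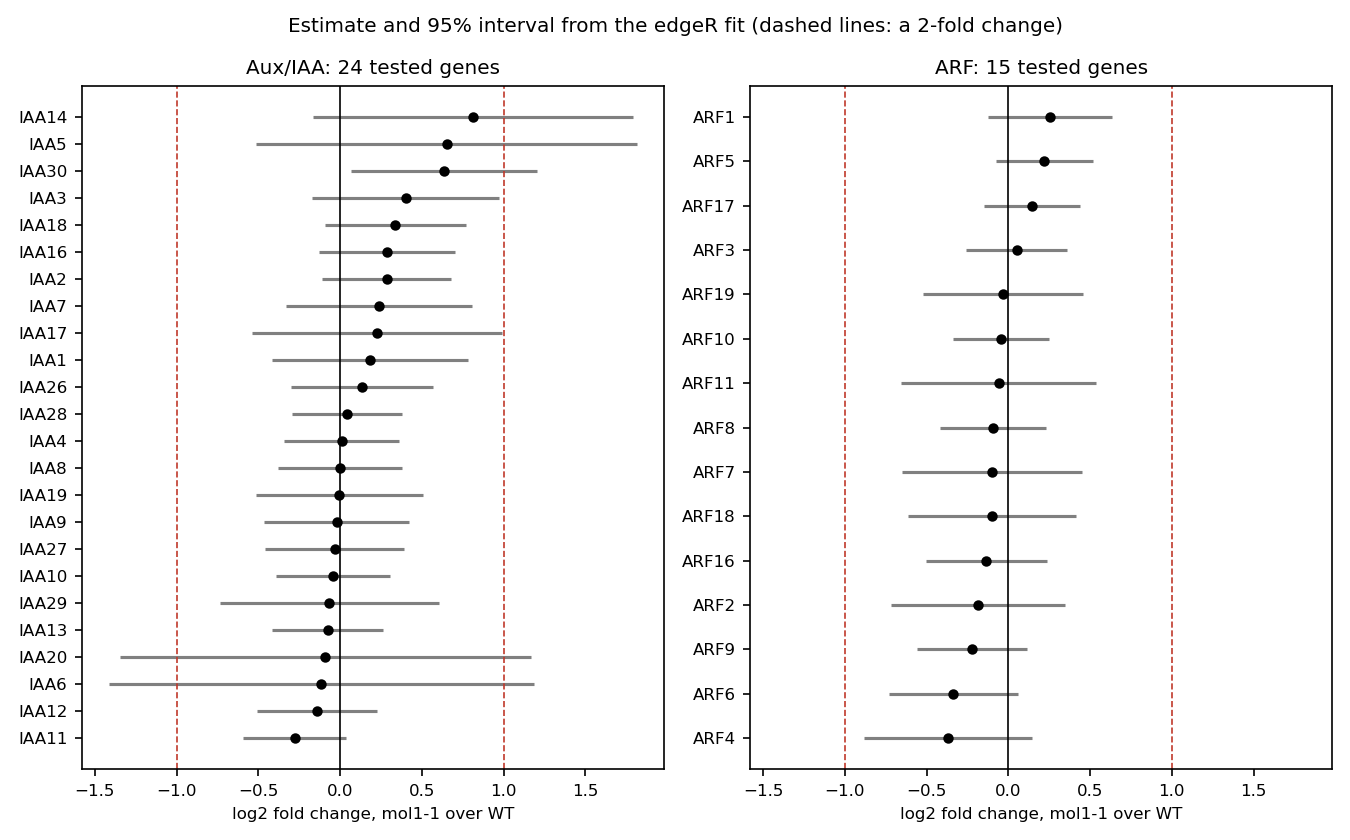
Log2 fold change of mol1-1 over WT with its 95% interval from the edgeR fit for the 24 tested Aux/IAA and the 15 ARF genes, in order of the estimate. Dashed lines mark a 2-fold change. The interval of IAA30, 0.07 to 1.20, is the one that leaves out 0, before adjustment over genes, and the widest intervals belong to the lowest genes.

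Some members lie side by side in the genome as pairs that face away from each other, with no protein-coding gene between. IAA3 and IAA17 on chromosome 1 are 6388 bp apart, IAA2 and IAA7 on chromosome 3 are 12510 bp apart, and IAA14 and IAA1 on chromosome 4 are 10732 bp apart. The pairs did not share a level. IAA3 was 3.08 to 4.85 times as high as IAA17 over the 4 libraries in RPKM, IAA2 was 1.48 to 2.22 times as high as IAA7, and IAA1 was 7.69 to 15.2 times as high as IAA14.

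The mol1-1 replicate 2 library lay at an end of the range in many members, mostly the upper end for Aux/IAA and the lower end for ARF genes. It was the highest of the 4 libraries in 13 of 24 Aux/IAA genes (54.2%) and the lowest in 9 of 15 ARF genes (60.0%), while over all tested genes it was the highest in 33.3% and the lowest in 34.2%. Its median deviation from the 4-library mean, in log2 CPM, was 0.12 for Aux/IAA and -0.18 for ARF genes. The Aux/IAA genes had a median exon length of 1190.5 bp and the ARF genes of 2841 bp. Over all tested genes the same library deviated by a median of 0.16 for exon lengths up to 1000 bp, 0.03 from 1000 to 2000 bp, -0.10 from 2000 to 3000 bp and -0.27 above 3000 bp. Its epidermis, green tissue, cambium and most xylem markers also lay at an end of the range, and its phloem markers did not, as given with the markers. The part of exon length or of tissue makeup in the deviation of either family was not tested. Leaving this library out moved the ARF median from -0.09 to 0.05, and leaving out mol1-1 replicate 1 moved it to -0.25 and the Aux/IAA median to 0.12.

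**Figure D3:**
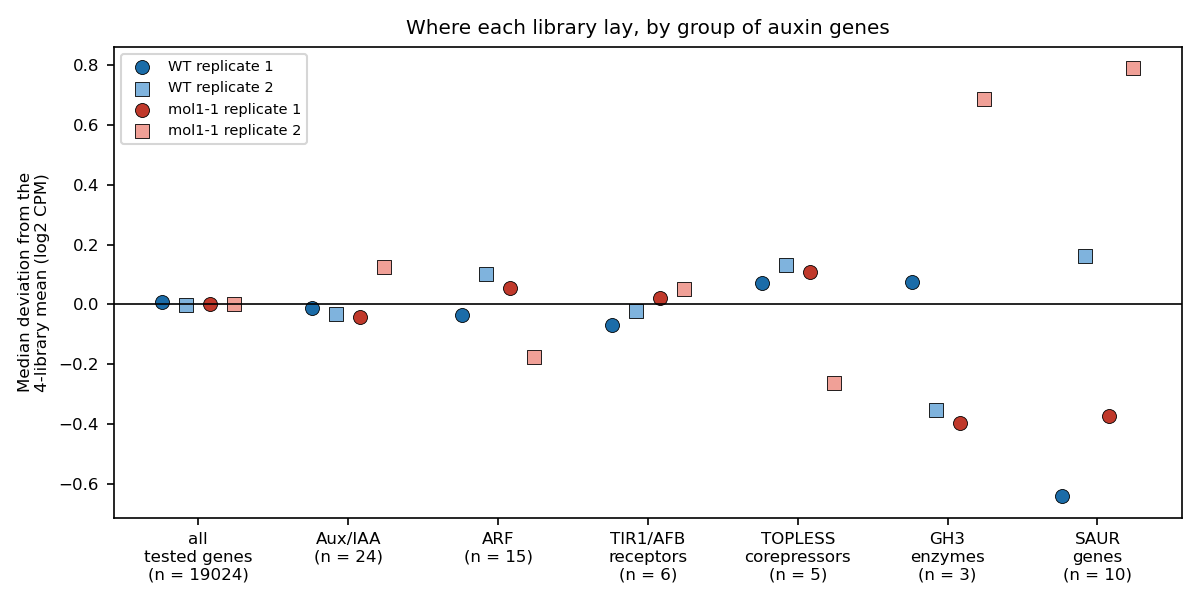
Median deviation of each library from the mean of the 4 libraries (log2 CPM, pseudocount 0.5) over the tested genes of each group, with the number of genes below the name. In mol1-1 replicate 2 the Aux/IAA genes sit at 0.12, the ARF genes at -0.18 and the TOPLESS corepressors at -0.26. The listed SAUR genes sit at 0.79 in that library.

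**Figure D4:**
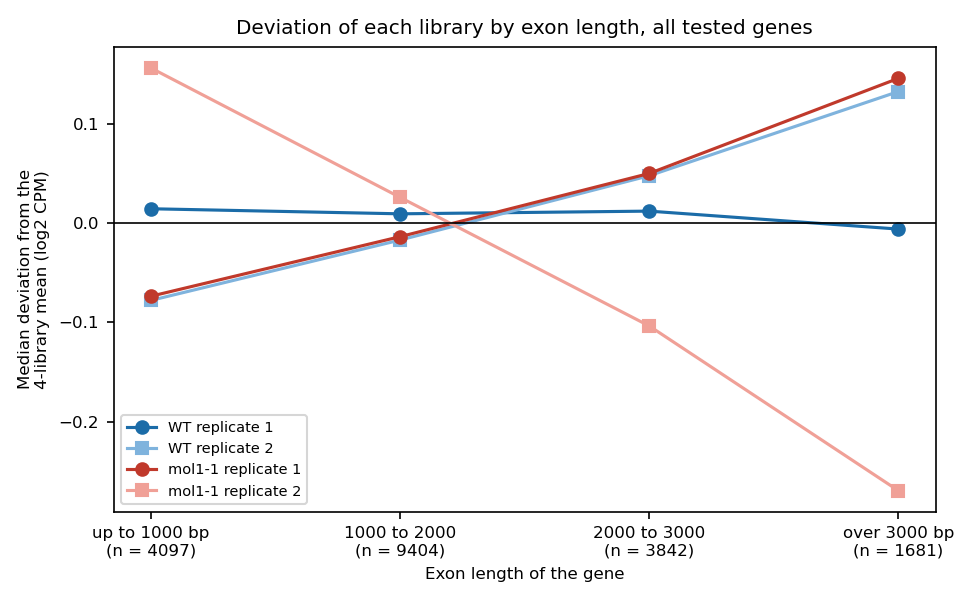
Median deviation of each library from the mean of the 4 libraries (log2 CPM) for all tested genes, split by exon length, with the number of genes in each class. The line of mol1-1 replicate 2 falls from 0.16 for the shortest to -0.27 for the longest genes, while WT replicate 2 and mol1-1 replicate 1 rise from -0.08 and -0.07 to 0.13 and 0.15.

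Around the 2 families, the receptors, the corepressors and the ubiquitin ligase were measured without a called change. The 6 receptor genes were all tested and 0 passed. AFB5, one of the receptors that also senses picloram, was at 75.3 and 75.9 RPKM in WT and at 91.9 and 96.3 RPKM in mol1-1, so the log2 fold change was 0.35 (SE 0.14; adjusted p = 0.841, edgeR). The libraries of each genotype lay close together and the groups did not overlap. AFB4, its relative, was at 10.4 and 10.7 RPKM in WT and at 12.2 and 11.3 RPKM in mol1-1, also without overlap. TOPLESS and its 4 relatives were all below 0, with a median log2 fold change of -0.18, and mol1-1 replicate 2 was the lowest library in all 5. Their exon lengths had a median of 3812 bp. That library deviated by a median of -0.26 in them (log2 CPM), beside -0.27 over all tested genes above 3000 bp. The part of exon length was not tested here either. TPR1 was at 26.0 and 25.5 RPKM in WT and at 23.3 and 21.0 RPKM in mol1-1, and TPR3 was at 6.96 and 5.68 RPKM in WT and at 5.85 and 4.91 RPKM in mol1-1. Of the 4 ligase genes 0 passed. AXR1, which activates the ligase, was at 18.5 and 15.2 RPKM in WT and at 14.4 and 15.5 RPKM in mol1-1, and CUL1, its scaffold, was at 95.6 and 99.4 RPKM in WT and at 94.9 and 81.1 RPKM in mol1-1.

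The listed genes that make auxin had low levels in this segment of many cell types. Of 14 synthesis genes 1 could be tested, TAR2, an aminotransferase of the first step, at 0.845 and 0.866 RPKM in WT and at 1.12 and 1.44 RPKM in mol1-1. Its mutant libraries lay above the WT libraries, and the estimate was a log2 fold change of 0.61 with an SE of 0.29 (edgeR, adjusted p = 0.929). Among the GH3 enzymes, which tie auxin to amino acids and are known to be induced by it, 3 of 7 were tested and 0 passed. GH3.5 was at 14.2 and 19.2 RPKM in WT and at 20.9 and 34.2 RPKM in mol1-1, so the log2 fold change was 0.74 (SE 0.27, adjusted p = 0.728 by edgeR). The libraries of a genotype differed widely, and without mol1-1 replicate 1 the log2 fold change was 1.03 with adjusted p = 0.0472, so its call turns on that library. Without mol1-1 replicate 2 it was 0.38 with adjusted p = 0.869, without WT replicate 1 it was 0.52 with adjusted p = 1.00, and without WT replicate 2 it was 1.02 with adjusted p = 0.494. GH3.6 was at 8.20 and 5.82 RPKM in WT and at 5.53 and 12.3 RPKM in mol1-1, with overlap.

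Of the 18 listed SAUR genes, short transcripts that auxin induces quickly, 10 were tested and 0 passed. The list does not stand for the whole SAUR family. All 10 estimates were above 0, with a median log2 fold change of 0.65, and mol1-1 replicate 2 was the highest library in all 10. The median exon length of these genes was 592 bp. This library deviated by a median of 0.79 in them (log2 CPM), beside 0.16 over all tested genes up to 1000 bp. The part of exon length in this was not tested. SAUR16 was at 1.29 and 5.44 RPKM in WT and at 6.13 and 10.3 RPKM in mol1-1, and SAUR65 was at 1.80 and 3.80 RPKM in WT and at 3.42 and 7.30 RPKM in mol1-1. SAUR16 had no overlap, but its WT libraries differed more from each other than WT replicate 2 did from either mutant library on a fold scale. Among genes known as ARF outputs 3 of 6 were tested and 0 passed. HAT2 was at 50.3 and 53.5 RPKM in WT and at 57.1 and 67.4 RPKM in mol1-1, and ATHB8, a target of ARF5 in the procambium, was at 41.1 and 42.3 RPKM in WT and at 43.2 and 31.8 RPKM in mol1-1. The 8 other ARF genes of a tandem cluster on chromosome 1 were not tested, and the most read of them, ARF20, had 14 and 9 reads in WT and 9 and 3 in mol1-1.

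Loci of the small RNAs of this pathway had no deposited exon model, but reads over their whole gene were given. MIR167D, which encodes miR167d, had 321 and 320 such reads in the WT libraries, against 123 and 121 in the mutant. All of these reads mapped uniquely, and no other annotated gene overlaps the locus (chr1:11137539-11137915, TAIR10.1). The libraries of each genotype agree closely and the groups are far apart, with a log2 fold change of -1.50 (SE 0.19). In the fit of gene reads its adjusted p was 0.0747 (edgeR), where 43 of 19660 genes passed (0.219%), so it did not pass. Under DESeq2, where 299 of 19660 genes passed, its adjusted p was 1.89e-05. With no filter on low counts (edgeR), where 223 of 24990 genes passed, it was 0.00457. It did not pass with limma-voom (0.0922), or in edgeR with unique gene reads (0.0724) or the replicate block (0.0641). The call thus depends on the test. This locus was singled out after its values were seen. No site for the miR167d form was found with up to 4 mismatches, and its best match had 5 in both ARF6 and ARF8, the genes whose miR167a sites are shown above. These genes had log2 fold changes of -0.34 (SE 0.16) and -0.09 (SE 0.13), neither of which passed. Poly(A) selection can retain unprocessed precursors, and the mature miRNA was not measured. TAS3 had 519 and 403 such reads in the WT libraries, against 442 and 673 in the mutant, a log2 fold change of 0.21 (SE 0.30), with overlap. The other 10 small RNA loci had at most 2 reads in any library.

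The counting limits some members. Reads were unique for 40 of the 43 members with any read, and at least 99.2% of reads were unique in the others. IAA34 overlaps a gene on its own strand by 156 bp and ARF19 by 6 bp, so counting by strand could not separate those reads. No source used here says whether reads were counted by strand. IAA13 overlaps a gene on the other strand by 1176 bp, IAA32 by 826 bp, IAA3 by 640 bp, IAA10 by 619 bp and ARF7 by 254 bp, so reads of those partners cannot be told apart from theirs.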

How the data were processed

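Read counts per locus (total and unique exon, gene, intron and junction reads) were deposited by the authors in 1 table per library. The RPKM values deposited by the authors equal exon reads per kilobase of exon, scaled to 1000000 gene reads. The median coverage (a signal column) deposited by the authors was used only to look at the ARF1 model. Reads were mapped to TAIR10, per the submitters' processing notes. No source used here names the aligner or the counter. Rows naming no locus (5 per library, 0.0586 to 0.0864% of exon reads) were left out.

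Exon read counts were tested with edgeR 4.0.16 (filterByExpr, TMM, quasi-likelihood F test, no covariate) in R 4.3.3, with Benjamini-Hochberg adjustment over 19024 genes and a threshold of 0.05. SE is the absolute log2 fold change over the root of F, and intervals use the fit's degrees of freedom. DESeq2 1.42.0, limma-voom (3.58.1), other scalings and filters, the replicate block and leaving out each library were alternatives, and small RNA loci were tested in gene reads. The fit was tested on simulated data. Motifs and sites were searched in RefSeq TAIR10.1, and the last residue of the degron core was left free only after the valine form alone had been searched.

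Named members are those with unadjusted p under 0.05, the 10 highest by mean RPKM and the 8 with the largest fold change, and, from each of 9 lists of other auxin genes (80 genes), up to 2 with the smallest p. ARF3, ARF5 and ARF8 were also given by library, outside this rule. The untested members are given by their reads, and others by level or by group. Members, lists and rules were chosen with earlier results of these data known.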

Additional observations from a re-analysis of the deposited data

How the results depend on the processing

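No member passed in any of the 13 alternative settings, and the smallest adjusted p of a member over them was 0.107 (IAA3, without mol1-1 replicate 1). Leaving out 1 library gave 1 to 12 members with unadjusted p under 0.05. The 12 (30.8% of those tested, beside 18.3% of all genes) came without mol1-1 replicate 1, and the other 3 fits gave 2.5 to 5% of members beside 3.02 to 6.72% of all genes. The number of all tested genes that passed was less steady, with 38 in the reported fit, 290 with DESeq2, 141 with no filter, 136 with the replicate block and 37 to 409 without 1 library. Of these, 89 passed without WT replicate 2, 409 without mol1-1 replicate 1 and 212 without mol1-1 replicate 2, split into 59 higher and 30 lower, 285 and 124, and 198 and 14. Same-numbered libraries deviated in opposite directions (r = -0.238 across 19024 genes). With 2 libraries per genotype the crossed pairing must give the opposite sign (0.238), so r cannot show whether libraries were paired by number. A crossed replicate block, chosen after seeing the data, gave 248 genes that passed. The cause was not tested. Without 1 library the Aux/IAA median log2 fold change ranged from -0.021 to 0.12 and the ARF median from -0.25 to 0.054. Among named genes, 363 of 377 values kept direction and side of the threshold and 1, GH3.5 without mol1-1 replicate 1, crossed it. Signs turned where 1 library was left out for IAA27 (-0.072 to 0.020), IAA9 (-0.089 to 0.036), IAA8 (-0.0206 to 0.0206), ARF2 (-0.49 to 0.060), IAA7 (-0.047 to 0.60), CUL1 (-0.27 to 0.017), GH3.6 (-0.28 to 0.80), ATHB8 (-0.40 to 0.11) and TAS3 in gene reads (-0.33 to 0.61). IAA8 also turned with DESeq2 (0.000741), limma-voom (0.000295) and DESeq2's scaling in edgeR (0.000755). For MIR167D, alternatives chosen after seeing the data gave log2 fold changes of -1.66 to -1.36 without 1 library, with adjusted p from 0.0151 to 0.125. The untested members had at most 14 reads in any library.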
